A study of Rattus norvegicus with 16 samples.

Results

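The core circadian clock genes measured here were Per1, Per2, Per3, Cry1, Cry2, Bmal1, Clock, Npas2, Nr1d1 and Nr1d2. Probes were matched to these genes through the RefSeq transcript that the array design gives for each probe, and the brightest probe of a gene in a tissue stood for the gene. All 10 genes were matched, by 13 of the 45598 probes, out of 16678 gene symbols with a probe, and the brightest probe was the same in both tissues. Male Brown Norway rats, 7 weeks old, were injected under the skin with 45 µg of house dust mite (HDM) in Al(OH)3 once per week for 3 weeks and then given 120 µg of HDM in saline through the nose 3 times per week for 3 weeks (HDM rats, n = 5). Control rats (n = 3) were given saline in Al(OH)3 under the skin and saline through the nose. Adjuvant injections and nasal dosing were thus common to both groups. RNA of the lung and of the adipose tissue of each rat was read on a 1-color array, so that 8 rats gave 16 arrays. Neither the depot of the adipose tissue, the light schedule nor the hour at which each rat was killed was given in the sources used here. Whether the groups were sampled at the same hour was not tested.

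The circadian clock is a loop of transcription that runs in most cells with a period near a day. BMAL1 pairs with CLOCK, or with its relative NPAS2, and switches on genes that carry an E-box in their regulatory DNA, among them the Per, Cry and Nr1d genes. PER and CRY proteins then block that activator. The Nr1d genes encode the nuclear receptors REV-ERBα and REV-ERBβ, which repress Bmal1 and Npas2 through RORE elements, and the PAR bZIP factors and NFIL3 act on D-boxes. In peripheral tissues such as lung and fat, Bmal1 transcripts therefore run opposite in phase to those of Per2 and Nr1d1, and Per1 is also induced directly by the glucocorticoid receptor.

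The start regions of Per2, Nr1d1 and Bmal1 are shown because they stand for the repressor, receptor and activator arms of the loop and hold letters of its known elements. RefSeq promoters of the GRCr8 assembly, from 250 bases before to 50 bases after each start, were matched for 9 of the 10 genes (all but Cry1), in 11 windows. The letters searched on both strands were CACGTG (E-box), CACGTT (a variant E-box), TTATGTAA (D-box) and AGGTCA (core of the RORE), and no matches overlapped. The 250 bases before the start are printed 5′ to 3′ on the strand of the gene, with matches in capitals. Per2 lies on the minus strand (chr9:99496994-99497243), Nr1d1 on the minus strand (chr10:84229455-84229704, the downstream of its 2 starts) and Bmal1 on the plus strand (chr1:176766078-176766327).
Per2: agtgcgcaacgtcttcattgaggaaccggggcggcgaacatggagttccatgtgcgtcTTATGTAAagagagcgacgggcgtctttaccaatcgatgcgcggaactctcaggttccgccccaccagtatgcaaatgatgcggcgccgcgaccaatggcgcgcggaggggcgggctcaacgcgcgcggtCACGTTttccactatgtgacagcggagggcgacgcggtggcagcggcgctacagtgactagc
Nr1d1: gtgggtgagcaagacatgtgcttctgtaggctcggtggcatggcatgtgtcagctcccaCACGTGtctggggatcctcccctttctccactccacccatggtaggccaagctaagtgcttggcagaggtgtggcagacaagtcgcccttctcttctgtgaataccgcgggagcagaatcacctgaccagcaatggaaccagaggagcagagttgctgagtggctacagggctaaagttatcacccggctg
Bmal1: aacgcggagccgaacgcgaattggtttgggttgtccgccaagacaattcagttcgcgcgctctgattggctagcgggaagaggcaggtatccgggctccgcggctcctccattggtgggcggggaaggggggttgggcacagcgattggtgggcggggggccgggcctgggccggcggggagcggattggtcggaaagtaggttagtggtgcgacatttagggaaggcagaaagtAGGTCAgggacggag
The D-box letters of Per2 began 192 bases and its variant E-box letters 62 bases before the start. The E-box letters of Nr1d1 began 191 bases before the start, and the AGGTCA of Bmal1 began 15 bases before it. The variant E-box letters also stood in the windows of Cry2 and of the upstream Nr1d1 start, and AGGTCA also stood in that of Nr1d2. None of these letters stood in the windows of Per1, Per3, Clock or Npas2. Among all 33469 promoter windows of this length, CACGTG stood in 6.42%, CACGTT in 4.83%, TTATGTAA in 0.893% and AGGTCA in 16.2%.

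Before the values, some arrays have to be named. The 8 arrays of a tissue shared 1 slide, with HDM rats 1 to 4 in row 1 and HDM rat 5 and the 3 control rats in row 2, so the row can be compared with the treatment only through HDM rat 5. The adipose samples of HDM rat 1 and control rat 1 carried genes of epididymis and testis. The summed level of that list (8 of 9 genes measured, all on at least 1 array above background) was 1658 and 2452 times the 75th percentile signal there, against 0.31 to 29.2 on the other adipose arrays. Lung markers summed to 1358 to 1655 in lung and 1.35 to 2.35 in adipose tissue, and adipocyte markers to 668 to 1340 in adipose tissue and 1.40 to 10.9 in lung, as the labels say. Neutrophil markers summed to 124 to 270 in the lungs of HDM rats and 9.09 to 11.0 in those of control rats, with 6 of 7 called higher, and in adipose tissue to 3.63 to 9.26 and 0.75 to 1.45, with none called and Mmp8 above background on no array. The other neutrophil marker in lung, Fpr1, was not called at −0.66 on the log2 scale (limma, adjusted p = 0.0877), and each HDM rat lay below the control range. Eosinophil markers summed to 1.81 to 3.23 and 0.90 to 1.53 in lung (2 of 5 at an unadjusted p below 0.05, none called, Il5ra above background on no array), and lymphocyte markers to 9.06 to 11.6 and 9.08 to 9.76. Their part in the results on clock genes was not tested. In bulk samples like these, fewer cells of a type and less RNA per cell cannot be told apart.

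In lung, the repressor genes Per1, Per2 and Cry1 fell in HDM rats, while the activator genes Bmal1 and Npas2 were above the control range in each of the 5 HDM rats without passing the threshold. A gene was called at an adjusted p below 0.05 over all probes (limma) and an absolute fold change above 1.5. By that rule 3 of the 10 clock genes were called, all lower, beside 0.855% of all probes. The methods' t-test called 2 of 10 in lung, Per2 and Cry1, beside 341 of all 45598 probes, and not Per1 (Benjamini–Hochberg adjusted p = 0.0725). At an unadjusted p below 0.05 there were 8 of 10 (6 lower, 2 higher), beside 10.2% of all probes. The groups did not overlap for 7 of 10 (5 lower, 2 higher), beside 9.61% of all probes. The median log2 fold change was −0.48 over the clock genes and 0.00 over all probes.

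Per1, a period gene that is quickly induced by hormones, had log2 signals (relative to the 75th percentile of the array, as all levels below) of 1.45, 1.80, 2.81, 2.79 and 2.36 in the lungs of HDM rats 1 to 5 and of 4.32, 4.22 and 4.19 in control rats 1 to 3. Every HDM rat lay below every control rat, and the HDM rats were spread far more widely. The means were 2.24 ± 0.60 (SD, n = 5) and 4.25 ± 0.07 (n = 3), a log2 fold change of −2.00 (SE 0.32, adjusted p = 0.0401), or 24.9% of the control level. A second, dimmer probe of Per1 gave −1.26 (SE 0.47, adjusted p = 0.393).

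For Per2, the period gene at the center of the negative limb, HDM rats 1 to 5 read −1.25, −1.08, −1.00, −0.81 and −0.54 and control rats 0.18, 0.51 and 0.60. The groups were again apart, and HDM rat 5 came closest to the control rats. Its log2 fold change was −1.36 (SE 0.18, adjusted p = 0.0208), which is 38.8% of the control level. Per3, a period gene that is dispensable for the core rhythm, ranged from −3.07 to −2.32 in HDM rats and from −2.47 to −2.06 in control rats. These ranges overlapped, with a log2 fold change of −0.47 (SE 0.19, adjusted p = 0.456).

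Cry1, the stronger repressor of the cryptochromes, read −0.15, −0.12, −0.34, −0.40 and −0.03 in HDM rats and 0.53, 0.61 and 0.63 in control rats. The spread within each group was narrow, and the log2 fold change was −0.80 (SE 0.12, adjusted p = 0.0291), or 57.5% of control. Cry2, its paralog, ranged from 2.92 to 3.33 in HDM rats and from 3.50 to 3.64 in control rats. The Cry2 groups did not overlap either, with a log2 fold change of −0.42 (SE 0.12, adjusted p = 0.206).

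Bmal1, the obligate partner of the activator, read 0.33, 0.16, 0.07, 0.16 and −0.56 in HDM rats and −0.82, −0.88 and −1.12 in control rats. HDM rats 1 to 4 stood close together, and HDM rat 5 lay between them and the control rats. The log2 fold change was 0.97 (SE 0.21, adjusted p = 0.0937), or 196% of control. Npas2, which can take the place of CLOCK, had the same layout, with −0.18, −0.16, −0.22, −0.26 and −0.85 in HDM rats and −1.22, −1.43 and −1.68 in control rats. Its log2 fold change was 1.11 (SE 0.19, adjusted p = 0.0504), 215% of control and just outside the threshold. Clock itself was dim, with HDM rats from −4.40 to −4.02 and control rats from −4.31 to −4.08. Its log2 fold change was −0.06 (95% confidence interval −0.37 to 0.25).

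Nr1d1, which encodes REV-ERBα, read 0.20, 0.57, −0.38, 1.09 and 1.25 in HDM rats and 0.97, 1.34 and 1.19 in control rats. HDM rats 4 and 5 lay within the control range and HDM rats 1 to 3 below it, so the HDM rats differed more among themselves (SD 0.67) than from the control rats (log2 fold change −0.63, SE 0.36, adjusted p = 0.682). Nr1d2, which encodes REV-ERBβ, ranged from 3.51 to 3.78 in HDM rats and from 4.15 to 4.16 in control rats. Its brightest probe gave −0.50 (SE 0.10, adjusted p = 0.084). The dimmer Nr1d2 probe gave −0.82 (SE 0.13, adjusted p = 0.0326) and passed both thresholds, so the 2 probes of this gene stood on different sides of the rule.

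**Figure D1:**
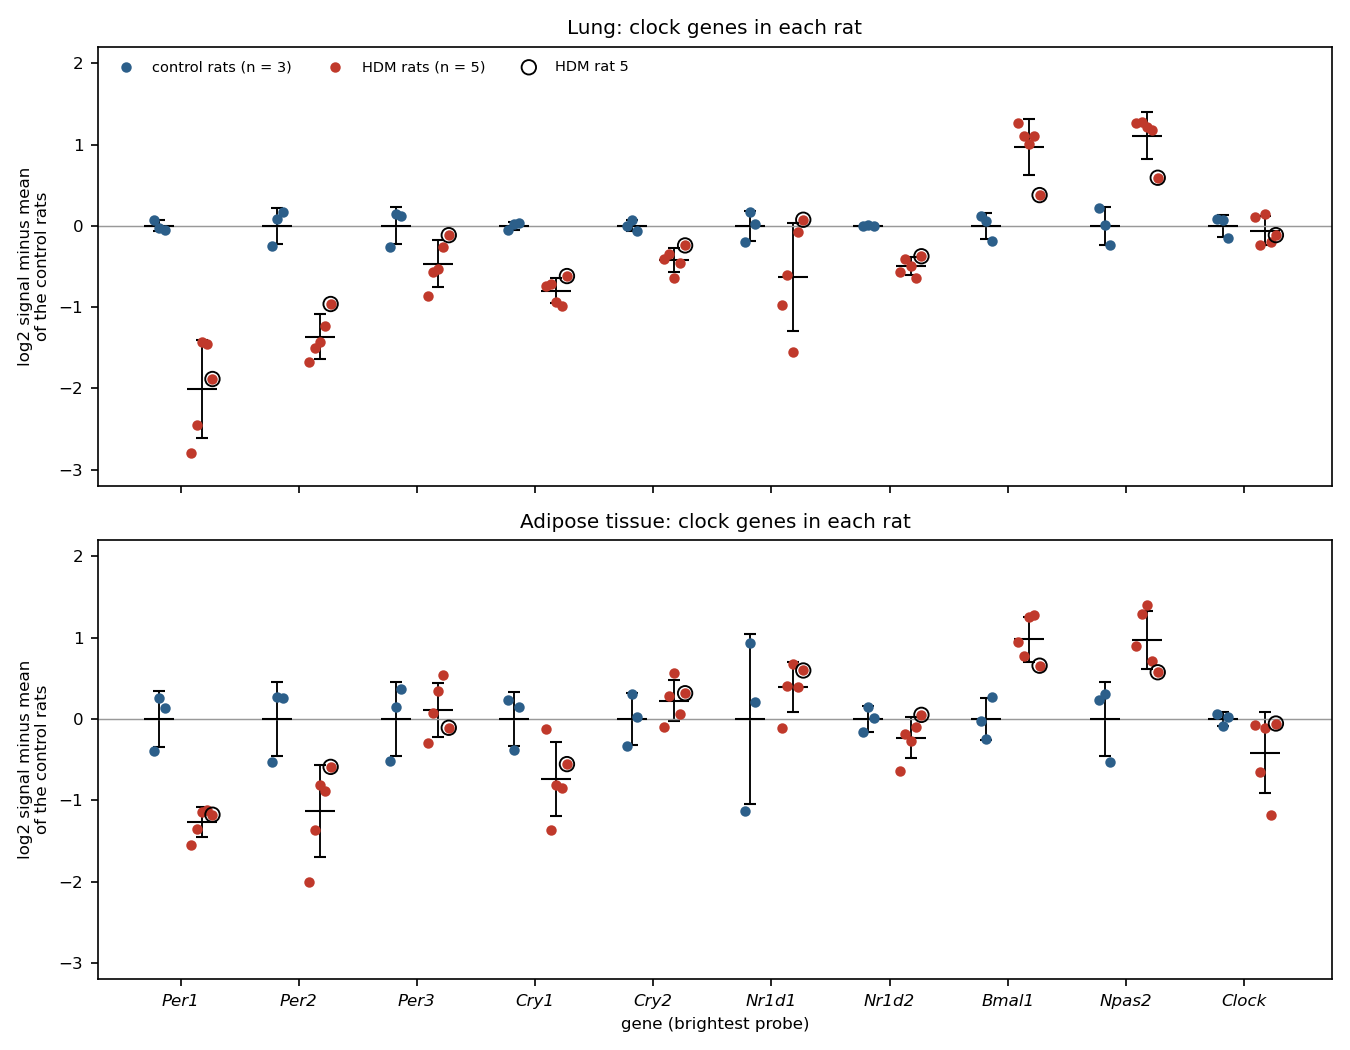
Log2 signal of each clock gene in each rat, minus the mean of the control rats of the same tissue (vertical axis, log2 units), for lung (top) and adipose tissue (bottom). Points are rats, horizontal bars with whiskers are the mean ± SD of 5 HDM or 3 control rats, and open circles mark HDM rat 5, the only HDM array in row 2 of the slide. In lung, Per1, Per2, Cry1, Cry2 and Nr1d2 lie below and Bmal1 and Npas2 above all control rats, and in adipose tissue this holds for Per1, Per2, Bmal1 and Npas2.

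These 3 calls depended on which rat was left out, and the calls over all probes fell in every such fit. Without HDM rat 3 or 4 the same 3 genes were called. Leaving out control rat 1, 2 or 3, or HDM rat 1 or 2, left 0 of 10 clock genes called by limma, while the log2 fold changes stayed between −2.03 and −1.81 for Per1, −1.49 and −1.28 for Per2 and −0.83 and −0.78 for Cry1. In these fits, in that order, 125, 100, 175, 163 and 161 of all 45598 probes were called, against 390 with all rats. Without HDM rat 3, 4 or 5 the calls over all probes were 333, 285 and 210. Without HDM rat 5, Per2, Cry1, Bmal1 and Npas2 were called, with log2 fold changes of 1.12 (adjusted p = 0.0231) for Bmal1 and 1.24 (adjusted p = 0.0203) for Npas2, and Per1 was not (−2.03, adjusted p = 0.0923). Within row 2 of the slide, which is also what the fit with the row as a block gives, HDM rat 5 differed from the mean of the control rats by −1.89 for Per1, −0.96 for Per2, −0.62 for Cry1, 0.38 for Bmal1 and 0.59 for Npas2. For the 7 clock genes whose groups did not overlap, HDM rat 5 lies outside the control range by definition, which adds nothing on the row. For the other genes it lay within that range. With the row as a block 0 of 10 were called by limma, beside 25 of all 45598 probes. At an unadjusted p below 0.05 there were 4 of 10, beside 3230 of all probes. HDM rat 5 was the HDM rat nearest to the control mean for 8 of the 10 genes.

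In adipose tissue, no clock gene passed the threshold, while Per1 and Per2 lay lower and Bmal1 and Npas2 higher in each HDM rat than in the 3 control rats. None of the 10 clock genes was called by limma, beside 0% of all probes. At an unadjusted p below 0.05 there were 5 of 10 by limma (3 lower, 2 higher), beside 9.9% of all probes. By the methods' t-test there were 4 of 10, beside 4180 of all 45598 probes, and that test called 0 clock genes and 0 probes as well. With scaling to array medians, 3 of 10 had an unadjusted p below 0.05 by limma, beside 3379 of all 45598 probes. The groups did not overlap for 4 of 10, beside 6.26% of all probes. The scale of these arrays matters here, because the middle adipose probe shifted by −0.15 (log2) with the 75th percentile and by 0.14 with scaling to array medians.

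Adipose Per1 read 2.89, 3.08, 3.29, 3.32 and 3.27 in HDM rats and 4.04, 4.70 and 4.58 in control rats. The HDM rats were tightly grouped and below all control rats, at a log2 fold change of −1.27 (SE 0.20, adjusted p = 0.213), or 41.5% of control. Per2 read −1.68, −1.04, −0.49, −0.55 and −0.26 in HDM rats and −0.20, 0.60 and 0.59 in control rats. HDM rat 5 and control rat 1 were only narrowly apart, and the log2 fold change was −1.13 (SE 0.36, adjusted p = 0.399). Scaled to the array median, the changes were −0.98 for Per1 and −0.84 for Per2.

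Bmal1 read −0.60, −0.77, −0.29, −0.27 and −0.89 in the adipose tissue of HDM rats and −1.57, −1.78 and −1.27 in that of control rats. Its log2 fold change of 0.98 (SE 0.21, adjusted p = 0.277), or 197% of control, was close to the value in lung. Npas2 read −0.81, −0.42, −0.31, −1.00 and −1.13 in HDM rats and −1.48, −1.40 and −2.24 in control rats. The groups were apart again, and the log2 fold change was 0.97 (SE 0.28, adjusted p = 0.369). Within row 2, HDM rat 5 differed from the control mean by −1.18 for Per1, −0.59 for Per2, 0.66 for Bmal1 and 0.57 for Npas2.

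Cry1 read −0.47, −1.72, −1.16, −1.19 and −0.90 in HDM rats and −0.11, −0.72 and −0.20 in control rats. HDM rat 1 lay above control rat 2, so the groups overlapped, with a log2 fold change of −0.74 (SE 0.29, adjusted p = 0.472). Nr1d1 read 0.20, 0.71, 0.98, 0.70 and 0.90 in HDM rats and −0.84, 1.23 and 0.51 in control rats. Control rats 1 and 2 held the lowest and the highest value of all 8 rats, and the log2 fold change of 0.40 (SE 0.43) became −0.17 without control rat 1 and −0.05 without HDM rat 1 and control rat 1. Per3 (0.11, SE 0.27), Cry2 (0.23, SE 0.22), Nr1d2 (−0.23, SE 0.19) and Clock (−0.41, SE 0.29) overlapped between groups. Of these, Per3 was −0.15 without control rat 1, and Nr1d2 was 0.07 with scaling to the median. Clock was above background in only 3 of the 5 HDM adipose samples, and the other 9 genes were above background on all arrays of both tissues.

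Without the 2 rats whose adipose samples carried epididymis and testis genes, the adipose log2 fold changes were −1.40 for Per1, −1.18 for Per2, 0.97 for Bmal1 and 1.11 for Npas2, and again none was called by limma (5 at an unadjusted p below 0.05). In lung the same omission gave −1.77 for Per1, −1.41 for Per2 and −0.84 for Cry1. None of the clock genes was called by limma, beside 41 of all 45598 probes, and 8 had an unadjusted p below 0.05, beside 2871.

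**Figure D2:**
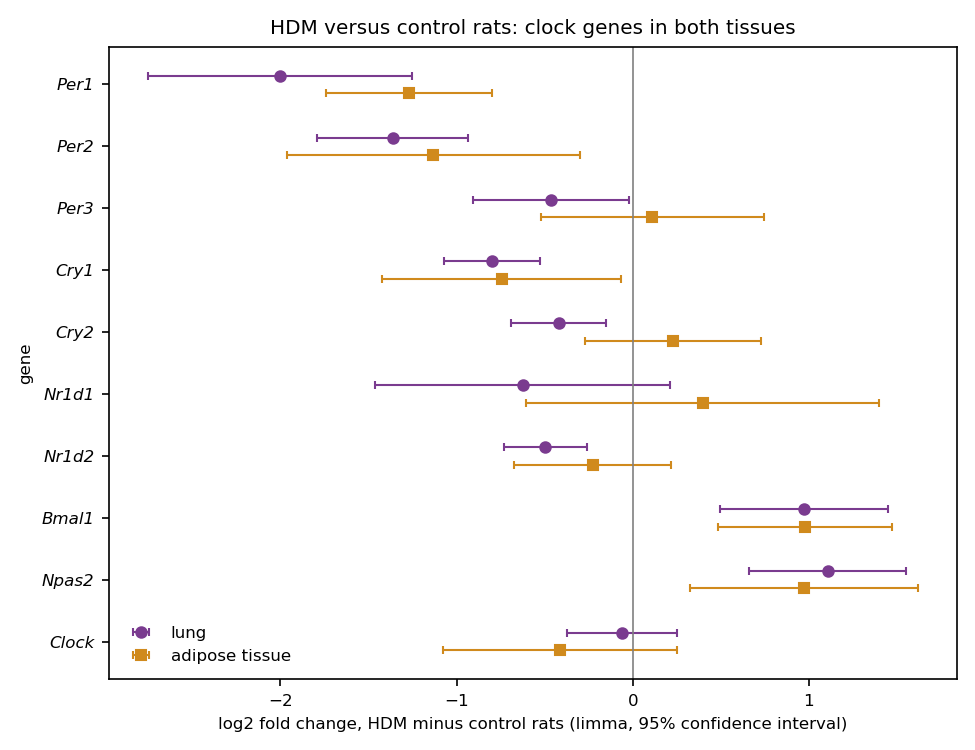
Log2 fold change of each clock gene between 5 HDM and 3 control rats (horizontal axis, limma estimate with its 95% confidence interval) in lung (circles) and adipose tissue (squares). The intervals of Per1, Per2, Cry1, Bmal1 and Npas2 exclude 0 in both tissues, and those of Bmal1 nearly coincide at 0.97 and 0.98.

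Differences between 2 clock genes on the same array do not depend on how the array was scaled. After each gene was set to its control mean, Bmal1 minus Per2 was 2.33 ± 0.60 log2 units (SD, n = 5) in HDM lungs, from 1.34 to 2.95, against −0.35 to 0.37 in control rats. In adipose tissue it was 2.11 ± 0.60, from 1.25 to 2.95, against −0.51 to 0.50. This amounts to a 5.04-fold shift of the ratio in lung and 4.32-fold in adipose tissue, with no overlap of the groups in either. Npas2 minus Per1 was 3.11 ± 0.73 in lung and 2.24 ± 0.42 in adipose tissue, and Bmal1 minus Cry1 was 1.77 ± 0.44 and 1.72 ± 0.54, all without overlap. Bmal1 minus Nr1d1 ranged from 0.30 to 2.56 in the lungs of HDM rats, overlapping the control rats (−0.20 to 0.32), and from 0.06 to 1.05 in adipose tissue against −1.17 to 1.11. These pairs were picked with the single-gene values known and are given as a description. Where 1 gene of a pair already lay above and the other below all control rats, their difference could not overlap. Among the pairs without overlap, only Bmal1 minus Cry1 in adipose tissue was not fixed in this way. The lack of overlap thus adds nothing to the single genes in the other pairs.

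**Figure D3:**
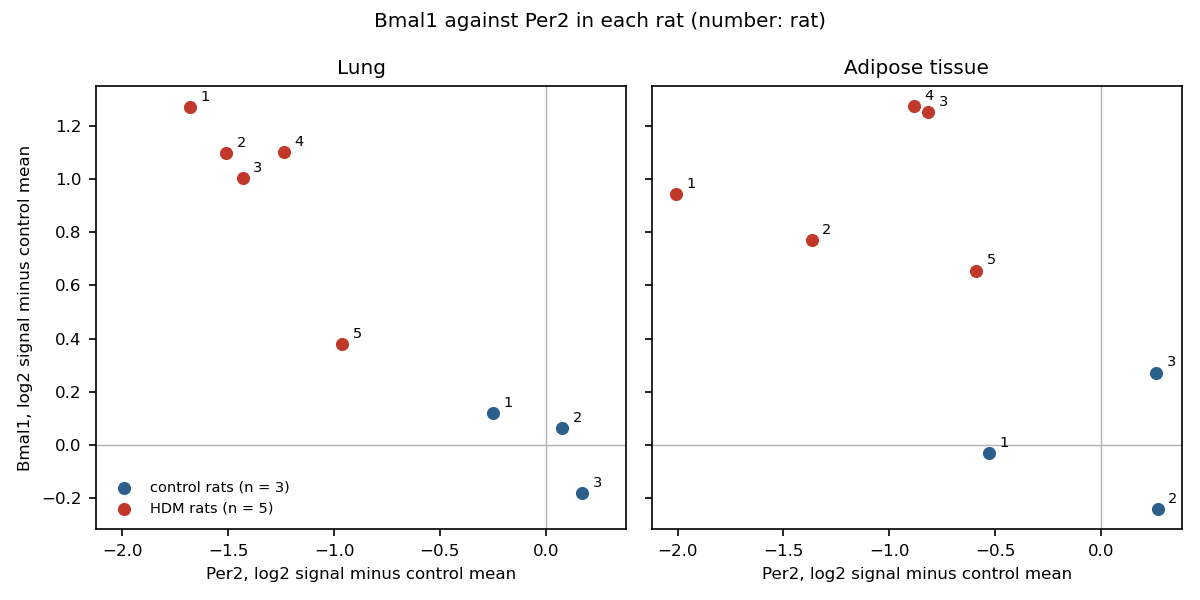
Bmal1 (vertical axis) against Per2 (horizontal axis) in each rat, as log2 signal minus the control mean, for lung (left) and adipose tissue (right), with the rat number beside each point. All 5 HDM rats lie to the upper left of the 3 control rats in both tissues, and HDM rat 5 is the nearest of them to the control rats.

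The HDM effects of the tissues were then compared in the same rats, by fitting the difference between lung and adipose tissue of each rat. Log2 fold changes had the same sign in both tissues for 7 of the 10 clock genes (5 lower, 2 higher), beside 49.9% of all probes, and were larger in absolute size in lung for 8. The exceptions in sign were Per3, Cry2 and Nr1d1. None of the 10 effects differed between the tissues at an adjusted p below 0.05 (limma), beside 0.00219% of all probes, and 2 of 10 did at an unadjusted p below 0.05, beside 7.74%. These were Cry2 (lung minus adipose effect −0.65, SE 0.26, adjusted p = 0.627) and Per1 (−0.73, SE 0.31, adjusted p = 0.64). For Bmal1 the difference was −0.01 with a 95% confidence interval of −0.63 to 0.62, for Cry1 −0.05 (−0.78 to 0.67), for Npas2 0.13 (−0.42 to 0.69) and for Per2 −0.23 (−0.83 to 0.37). For Nr1d1, −0.63 in lung and 0.40 in adipose tissue gave a difference of −1.02 (95% confidence interval −2.20 to 0.16). It was −0.55 without control rat 1 and ranged from −1.40 to −0.55 with 1 rat left out, and the lung value was −0.39 without HDM rat 3.

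In control rats, Cry1 and Bmal1 were higher and Clock lower in lung than in adipose tissue. The log2 differences were 0.93 for Cry1 (SE 0.25, adjusted p = 0.0171), 0.60 for Bmal1 (SE 0.21, adjusted p = 0.0488) and −0.70 for Clock (SE 0.21, adjusted p = 0.0272), each with the same sign in 3 of 3 rats. With 3 of 10 called, the clock genes stood beside 44.3% of all probes that differed between these tissues. The middle probe of all was itself at −0.58 with this scaling, so the −0.70 of Clock lay near the general shift. That middle value was −0.06 with quantile normalization and −0.33 with scaling to the median. Quantile normalization over all arrays left Cry1 as the only call, scaling to the median left Cry1 and Bmal1, and Clock moved to −0.32 and −0.45. Without control rat 1 only Cry1 was called, without control rat 2 none was (Cry1 0.74, adjusted p = 0.106), and without control rat 3 Cry1 and Bmal1 were. In HDM rats, 5 of 10 differed, beside 44.3% of all probes: Cry1 (0.88) and Bmal1 (0.60) were higher in lung, and Per1 (−0.93), Per3 (−0.72) and Cry2 (−0.89) lower. The middle probe of all was at −0.35 there.

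In the order of the 4 group means, Per1 stood highest in the adipose tissue (4.44) and lung (4.25) of control rats, which did not differ beyond their spread, then in the adipose tissue (3.17) and last in the lung (2.24) of HDM rats. Per2 had the control rats of both tissues together (0.43 in lung, 0.33 in adipose tissue) above the HDM rats of both (−0.80 in adipose tissue, −0.94 in lung). Bmal1 ran from 0.03 in the lungs of HDM rats through −0.56 in their adipose tissue and −0.94 in control lung to −1.54 in control adipose tissue. The values of the middle pair overlapped. Npas2 had the same order (−0.33, −0.73, −1.44 and −1.71), with overlap within the HDM and within the control pair. For Cry1, lung of control rats (0.59) was highest, then lung of HDM rats (−0.21) and adipose tissue of control rats (−0.34), which were within their spread, and adipose tissue of HDM rats was lowest (−1.09).

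Whether the tissues of a rat agree was tested on the deviations of each rat from its group mean, so that the HDM effect plays no part. Pearson r over the 8 rats was highest for Per2, at 0.89 (two-sided exact permutation over 720 re-pairings within groups, p = 0.0111, adjusted over the 10 genes 0.111, Spearman rho 0.79, exact p = 0.0458, adjusted 0.458). For Npas2 it was 0.71 (exact p = 0.0486, adjusted 0.218, rho 0.60, exact p = 0.167, adjusted 0.573). None of the 10 passed after adjustment, and 2 of 10 had an unadjusted p below 0.05, beside 4.01% of all probes. Without the 2 rats farthest from the lung median, r was 0.89 for Per2, 0.69 for Npas2 and 0.89 for Per1. The rats left out were control rats 2 and 3 for Per2 and Npas2, and control rats 1 and 2 for Per1. That median was taken over all 8 rats and not within groups, so every HDM rat stayed in for these genes. The omission therefore cannot show how far r rests on single HDM rats. The other genes had r of 0.62 for Clock, 0.58 for Per3, 0.51 for Per1, 0.36 for Nr1d2, 0.28 for Bmal1, 0.20 for Nr1d1, 0.10 for Cry1 and −0.15 for Cry2, with exact p from 0.0653 to 0.867. The median r was 0.44 over the clock genes and 0.05 over all probes.

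Each rat had the same row and column on the lung slide as on the adipose slide, so the rat and its place on the slides cannot be told apart here, and HDM rat 5 was the only HDM array in row 2 of either. HDM rat 1 had the lowest and HDM rat 5 the highest Per2 of the HDM rats in lung (−1.25 and −0.54) and in adipose tissue (−1.68 and −0.26), and control rat 1 was the lowest control rat in both. HDM rat 5 had the lowest Npas2 of the HDM rats in both tissues (−0.85 and −1.13) and the lowest Bmal1 (−0.56 and −0.89). The adipose samples of HDM rat 1 and control rat 1 are those with epididymis and testis genes, and without these 2 rats r was 0.89 for Per1 (exact p = 0.0417), 0.80 for Per2 (exact p = 0.25) and 0.74 for Npas2 (exact p = 0.0625), none passing after adjustment. With scaling to the array median r was 0.52 for Per1, 0.74 for Per2 and 0.35 for Npas2.

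**Figure D4:**
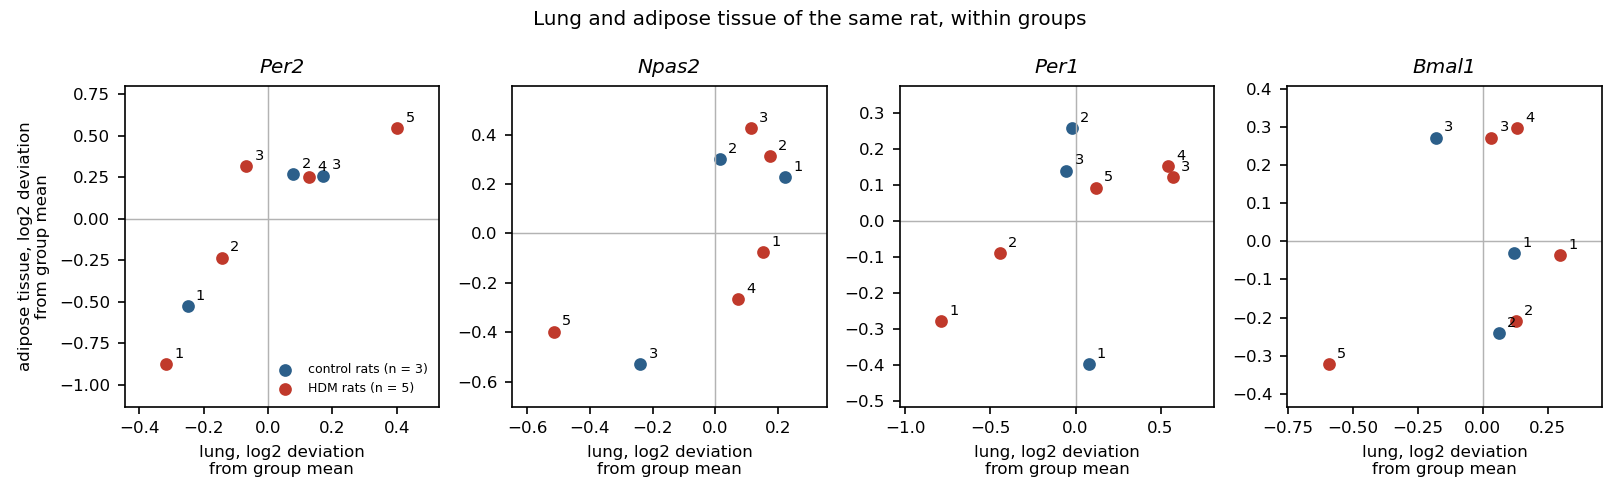
Deviation of each rat from its group mean in lung (horizontal axis) and in adipose tissue (vertical axis), in log2 units, for Per2, Npas2, Per1 and Bmal1, with rat numbers beside the points. For Per2 the 8 rats run from HDM rat 1 at the lower left to HDM rat 5 at the upper right (r = 0.89), and for Bmal1 no such line is seen (r = 0.28).

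Some pairs of clock genes varied together among rats of a group and others did not. In lung, the within-group deviations of Per1 and Nr1d1 had r = 0.06 and those of Nr1d1 and Nr1d2 0.07. By contrast, the within-group deviations of Bmal1 and Npas2 had r = 0.95, those of Per2 and Per3 0.97 and those of Bmal1 and Per2 −0.85, over 8 arrays that share 1 slide. In adipose tissue these values were −0.19, 0.68 and 0.10, and the closest pair was Per1 and Nr1d1 (0.93). For that pair, control rat 1 lay farthest from the control mean (−0.40 for Per1 and −1.14 for Nr1d1). HDM rat 1 was the lowest HDM rat for both genes. The adipose samples of these rats carried epididymis and testis genes, and r without them was not tested for this pair. In lung, HDM rat 5, the only HDM array in row 2, had the lowest Bmal1 (−0.56) and Npas2 (−0.85) of the HDM rats. It also had the highest Per2 (−0.54) and Per3 (−2.32) of them. How far r of the lung pairs rests on HDM rat 5 was not tested.

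Over all 8 lung arrays, HDM and control rats together, the gene most like Bmal1 among 11943 others above background on every array was Npas2 (r = 0.99). Rhov, Snai2, Srms and Sh3bp5 followed (0.96 to 0.98). The lowest r belonged to Lrrc24 (−0.97), Itga7, Per2 (−0.96), Cdhr5 and Psat1 (−0.96). In adipose tissue, over 9961 genes, the highest were Psme3 (0.95), Nkiras2, Actr2, Cables2 and Bcl10 (0.92), and the lowest Gzmk (−0.95), Phykpl, Lgr4, Sgcd and Mtmr12 (−0.92), with Npas2 at position 451 (0.68). For Nr1d1, the highest in lung were Htra1 (0.99), Ddx39b, Cyp2b2, Aoc3 and Thsd1 (0.98), and the lowest Rap1b (−0.99), Arpc3, Aurkaip1, Gpr174 and Atraid (−0.97). In adipose tissue they were Afap1 (0.99), Thrsp, Sucnr1, Grk5 and Clmp (0.99), and Smagp (−0.97), Tom1l1, Npl, Synrg and LOC102554142 (−0.96). These values hold the difference between HDM and control rats and the depth of each array, and are a description. The adipose values also hold the samples of HDM rat 1 and control rat 1, which carried epididymis and testis genes. Control rat 1 had the lowest adipose Nr1d1 of the 8 rats (−0.84).

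Of the clock output genes, which carry the rhythm to other genes, 5 of 7 were measured (not Hlf and Bhlhe41). Tef, a PAR bZIP factor that binds D-boxes, was the only one called, at −1.09 in lung (SE 0.15, adjusted p = 0.0201), with levels of 3.21 ± 0.20 (n = 5) in HDM and 4.30 ± 0.16 (n = 3) in control rats. At an unadjusted p below 0.05 there were 3 of 5 in lung, Tef and Dbp lower (Dbp −0.99, adjusted p = 0.212) and Nfil3, a repressor at D-boxes, higher (0.61, adjusted p = 0.212), the last 2 of these named after their values were seen. The call of Tef was lost without any of the control rats or without HDM rat 1 or 2 (−1.18 to −1.02). In adipose tissue none was called by limma, 1 of 5 had an unadjusted p below 0.05, and the smallest p belonged to Ciart, a repressor of CLOCK and BMAL1 (−1.35, SE 0.21, adjusted p = 0.211, above background on 1 of 8 arrays), and to Tef (−0.49, SE 0.28, adjusted p = 0.62). The median log2 fold change of the list was −0.87 in lung, which is the value of Ciart, above background on only 2 of 8 lung arrays, and −0.26 in adipose tissue.

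Of the regulators of the clock, among them kinases, ubiquitin ligases and nuclear receptors that act on its proteins and genes, 13 of 17 were measured. None was called in either tissue by limma, and none had an unadjusted p below 0.05. The smallest p in lung belonged to Usp2, a deubiquitinase (−0.25, SE 0.12, adjusted p = 0.547), and Cipc, an inhibitor of CLOCK (−0.23, SE 0.11, adjusted p = 0.556), and in adipose tissue to Btrc (0.31, SE 0.23, adjusted p = 0.734) and Csnk1e (0.18, SE 0.15, adjusted p = 0.768), which act on PER proteins. The median log2 fold changes were −0.12 and 0.03.

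Genes induced by glucocorticoids, as Per1 is, were read beside it. Of 6 genes, Zbtb16 (−4.70, SE 0.19, adjusted p = 7.28e-05), Fkbp5 (−2.78, SE 0.13, adjusted p = 0.000134) and Klf9 (−1.25, SE 0.17, adjusted p = 0.0235) fell in lung. Klf9, a factor that is itself rhythmic, was not called without any of the control rats or without HDM rat 1 or 2 (−1.26 to −1.17). The other 3 genes, given to complete the list, were not called by limma. Tsc22d3 was at −1.57 (SE 0.28, adjusted p = 0.0671), with no value for the lung of HDM rat 4, and alone of these had an unadjusted p below 0.05. Sgk1 (0.03, SE 0.10) and Dusp1 (0.39, SE 0.41) were not lower. In adipose tissue none of the 6 was called by limma and 3 had an unadjusted p below 0.05, with −2.04 for Fkbp5 (adjusted p = 0.0853) and −2.54 for Zbtb16 (adjusted p = 0.172). Their part in the change of Per1 was not tested. Gapdh and Hprt1, used for scaling in an alternative, had no called change in either tissue. Hprt1 had no value for the adipose tissue of HDM rat 2.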

How the data were processed

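RNA of lung and adipose tissue of 8 rats was hybridized on 16 arrays, mapped to rats and tissues by their labels. The authors deposited spot intensities, extracted with Agilent Feature Extraction 12.0.3.1 per the file headers, background-subtracted and not normalized between arrays, and a table of log2 values from GeneSpring, used as an alternative. Its values lay within 0.1 of the scanner values, scaled as below and then set to the median of the probe over the arrays of the tissue, in 99.9734% of lung and 99.8518% of adipose cells, and 39 cells without a number were treated as missing. Control spots and outlier spots were left out, spots of a probe were averaged, and the 75th percentile of each array was subtracted on the log2 scale. Outlier spots numbered 265 to 643 per array and 1224 in adipose tissue of HDM rat 2. Between 51.0% and 68.8% of probes were well above background. The number of arrays limits the precision.

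Groups were compared with limma 3.58.1 in R 4.3.3, adjusted by Benjamini–Hochberg over 45598 probes, with the fold threshold of 1.5 of the study's methods. Lung and adipose tissue were paired by the rat that the labels name. Over all probes, the deviations of the tissues of a rat from their group means correlated at −0.10 to 0.11. The best match was with the other tissue of the same rat only for HDM rat 2 and control rat 1, so the pairing rests on the labels. Exact permutation tests were two-sided. The smallest p for 5 against 3 rats is 0.0179. Scripts were tested on simulated data. Symbols came from RefSeq accessions and 47357 genes of GRCr8 (21229 probes). The 10 genes, the lists and the rule for naming genes (all clock genes, called list genes or the 2 of a list with the smallest p, and the 5 most and least alike) were chosen with earlier results of these data known. Alternatives were the methods' t-test, other normalizations, the deposited table, a filter on dim probes, array weights, each rat left out, blocks, and all probes of a gene. The normexp alternative (offset 50) used median spot signals, since the scanner files give no mean signal. Python 3.11.15 and matplotlib 3.10.9 were used.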

Additional observations from a re-analysis of the deposited data

Results flagged for a closer look

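Npas2 in the lung of HDM rat 5 was −0.85, far from the other 4 HDM rats, whose values lay between −0.26 and −0.16. The gap was 0.853 of the range of the group, above the critical value of 0.71 for 5 samples. The control rats lay between −1.68 and −1.22. Of 20 groups of HDM rats looked at (10 genes in 2 tissues), this was the only such value, and chance alone gives about 1 in 20. Bmal1 in the lung of HDM rat 5 had the same layout without passing the critical value (−0.56, against 0.07 to 0.33 in HDM rats 1 to 4). The array of HDM rat 5 was the only HDM array in row 2 of the slide, and the part of the row was not tested apart from that rat.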

How the results depend on the processing

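In lung, where 3 clock genes were called, the directions of Per1, Per2, Cry1, Cry2, Bmal1, Npas2 and Nr1d2 were the same under all 21 alternatives. Per1 was called under 10 of them (adjusted p from 0.0088 to 0.512), Per2 under 13 (0.00228 to 0.427), Cry1 under 13 (0.00398 to 0.512), Npas2 under 6 (0.00796 to 0.618) and Bmal1 under 3 (0.0231 to 0.786). The count was 5 with normexp and quantile normalization and 5 with only probes well above background, both adding Bmal1 and Npas2, 0 with the slide row as a block and 0 without HDM rat 1 and control rat 1. It was 0 to 4 when 1 rat was left out, beside 100 to 333 calls over all probes. Averaging all probes of a gene called Per2, Cry1 and Nr1d2. The replicate numbers of HDM and control rats name different animals and do not pair them. Same-number correlations were −0.08 to 0.05 in lung and 0.10 to 0.59 in adipose tissue. The 0.59 belonged to the rats numbered 1, whose adipose samples carried epididymis and testis genes. With the replicate block 0 clock genes were called in lung (Per1 −2.22, Per2 −1.54 and Cry1 −0.79) and 0 in adipose tissue. Over all probes the lung calls were 390, 0 with the replicate block, 25 with the slide row and 41 without the rats numbered 1. In adipose tissue the count was 1 with array weights (Per1, −1.38, adjusted p = 0.017 by limma), which called 338 probes against 0, and 0 to 0 when 1 rat was left out. The count of effects that differed between tissues was 0 under every alternative, and 0 to 0 when 1 rat was left out. The count of levels that differed between the tissues of control rats was 5 in HDM rats, 1 with quantile normalization and 0 to 2 when 1 rat was left out. Without centering on group means, 4 clock genes (Per1, Per2, Bmal1 and Npas2) had correlated tissues, since the difference between groups then enters r. The cause of the other shifts was not tested.

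Some directions turned. In lung these were Clock (0.00 with the replicate block) and Nr1d1 (0.07 with the slide row). In adipose tissue they were Per3 (−0.15 to 0.30 with 1 rat left out, lowest without control rat 1, −0.11 with the slide row, −0.05 without the rats numbered 1), Nr1d1 (−0.17 to 0.86 with 1 rat left out, lowest without control rat 1, −0.05 without the rats numbered 1 and −0.16 with array weights), Clock (0.02 with normexp), Nr1d2 and Dbp (0.07 and 0.05 with median scaling, 0.05 and 0.02 with the slide row) and Nfil3 (0.04 with median scaling). For the difference of effects they were Bmal1 and Cry1 (each −0.23 to 0.14 with 1 rat left out, highest without control rat 2), Npas2 (−0.21 with median scaling, −0.01 without control rat 2 to 0.28 without control rat 3) and Clock (−0.09 with quantile normalization). For the tissue levels they were Per1 (0.02 with quantile normalization, 0.05 with median scaling), Per3 (0.11) and Cry2 (0.00) with median scaling, Per2 (−0.13 in HDM rats, −0.04 without control rat 1 to 0.19 without control rat 2), and Nr1d1 (−0.15) and Nr1d2 (−0.14) in HDM rats. For r they were Nr1d1 (−0.01 not centered, −0.15 without the rats numbered 1), Cry1 (−0.04) and Bmal1 (−0.06) with median scaling, Clock (−0.14 with quantile normalization), Per3 (−0.21 without the rats numbered 1) and Cry2 (0.48 without the 2 farthest rats). The signal over background limits Clock, whose adipose values came closest to it.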
